A study of Mus musculus with 13 samples.

Results

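Adipokines are the hormones and secreted enzymes of fat cells. The genes described here are Adipoq, Lep, Retn and Cfd, measured in pooled mouse aortae in which markers of fat cells were present. The members were all probe sets that the platform annotation assigned to these 4 genes. It gave 4 of the 12422 probe sets analysed to 3 of the 4 genes, among 8251 genes with a probe set of their own in the series: 1 to Adipoq, 2 to Lep and 1 to Retn. None was assigned to Cfd, so Cfd is not analysed here. Of the 4 probe sets, 3 passed the filter on low intensity, as did 7453 of all probe sets.

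The samples were aortae of C57/Bl6 mice, without genetic change or treatment in the labels; the labels give neither age nor sex. All mice had 2 weeks of 12 h light and 12 h darkness and then 36 h of constant darkness, and aortae were collected at intervals of 4 h for 48 h. The pools are named by circadian time (CT), from CT42 to CT62 on the second day and from CT18 to CT38 on the first, and each combines 6 aortae. There were 13 one-colour arrays for 12 time points. The 2 arrays of CT18 were averaged as 1 pool, and the labels do not say whether both came from the same pool. Each time point thus entered the tests as 1 pool. P-values of the rhythm and day tests measure the spread of pools around a fitted curve. Those of correlations come from reordering the pools, which ignores their order in time.

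Adipoq encodes adiponectin, a hormone that raises insulin sensitivity and fatty acid oxidation through the receptors Adipor1 and Adipor2. Lep encodes leptin, which reports the body's fat stores to the brain and acts through the receptor Lepr. Retn encodes resistin, a fat cell hormone in mice that opposes insulin action. Cfd encodes adipsin, the protease that starts the amplification step of the alternative complement pathway. The fat around the mouse aorta has brown fat character in the chest and more white fat character in the abdomen, and its secreted factors reach the vessel wall directly.

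The upstream sequence of each measured gene is shown because the 3 genes are all known as genes of mouse fat cells and are set side by side below. The windows are the 250 bases before the annotated transcript start, from RefSeq on GRCm38.p6, plus strand, in lower case; capitals mark matches to the motifs searched on both strands. The windows lie at chr16:23146286-23146535 for Adipoq, chr6:29059971-29060220 for Lep and chr8:3655520-3655769 for Retn.
Adipoq: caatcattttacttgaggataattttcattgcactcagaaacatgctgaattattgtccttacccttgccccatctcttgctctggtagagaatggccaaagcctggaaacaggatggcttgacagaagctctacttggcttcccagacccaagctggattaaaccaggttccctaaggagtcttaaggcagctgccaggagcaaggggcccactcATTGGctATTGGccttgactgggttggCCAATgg
Lep: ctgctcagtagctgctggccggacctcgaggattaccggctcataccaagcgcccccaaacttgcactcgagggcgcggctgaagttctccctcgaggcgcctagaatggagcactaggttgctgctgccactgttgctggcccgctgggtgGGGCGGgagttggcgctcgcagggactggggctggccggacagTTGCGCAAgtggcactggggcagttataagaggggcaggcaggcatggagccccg
Retn: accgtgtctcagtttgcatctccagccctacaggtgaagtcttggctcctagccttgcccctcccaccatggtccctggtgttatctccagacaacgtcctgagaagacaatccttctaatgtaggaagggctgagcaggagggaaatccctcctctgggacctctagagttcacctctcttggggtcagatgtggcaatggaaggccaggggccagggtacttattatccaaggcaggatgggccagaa
The C/EBP motif TTGCNNAA, bound by factors that drive fat cell differentiation, matched the Lep window at bases 55 to 48 before the start, in both orientations. It matched 9.57% of 32817 promoter windows of this length. The Lep window also held the GC box GGGCGG, present in 32.7% of windows. The Adipoq window held 3 copies of CCAAT, a motif found in 33.8% of windows. The Retn window matched none of the motifs, and the E-box CACGTG (6.02% of windows), the nuclear receptor half-site AGGTCA (14.0%) and the TATA box TATAAA (12.4%) matched none of the 3. These are matches of letters, and the data hold no measure of binding.

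The values are the deposited intensities, on a linear scale. After trimming 2% from both tails, their averages were already alike between arrays, at 200.2. Between 21.3% and 24.2% of the values of an array were at or below 0. Intensities below a floor of 36.7 were set to it before log2 was taken, and all amplitudes and differences below are on that log2 scale. Array medians were 70.4 to 87.6. Most fat cell markers with a probe set passed the intensity filter: 17 of 18 adipocyte identity genes and 8 of 9 brown fat genes. The filter kept 5655 of the 8251 genes in the series, so passing it alone does not show that a tissue is present. Fabp4, the fatty acid binding protein of adipocytes, ran from 6362 to 8457 over the pools. Ucp1, which uncouples mitochondria in brown fat, ran from 5898 to 10111. Some markers were low: Mest was under the floor in 10 of 12 pools, Zic1 in 12 and Elovl3 in 4. Markers of the vessel wall were present as well: 6 of 7 smooth muscle genes with a probe set passed the filter. Acta2, smooth muscle actin, lay between 3783 and 6848. Tissues near the aorta varied more: the summed intensity of 12 skeletal muscle genes ran from 6432 at CT54 to 32431 at CT34, and that of 8 thymocyte genes from 662 at CT42 to 4563 at CT54. In pooled tissue, fewer cells of a type and less RNA per cell cannot be told apart.

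The first question is how steady each adipokine was from pool to pool. At the deposited scaling, Adipoq (probe set 99104_at) hardly varied, Retn (102366_at) varied 2.45-fold, and Lep (98443_at) varied 6.04-fold between its lowest and highest pool. The low end of the Lep range is 1 pool, CT54 at 107, and the next lowest, CT26, read 249. The second Lep probe set, 98444_g_at, had an intensity at or below 0 on all 13 arrays, from -419 to -20.7. It lies under the floor and is not used further, so the Lep results rest on 1 probe set.

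Adipoq intensities from CT18 to CT38 were 8263, 9090, 9228, 8307, 9898 and 8773. From CT42 to CT62 they were 8615, 9808, 8123, 8687, 9302 and 9042. The lowest and highest pools, CT50 and CT34, differed 1.22-fold, and high and low pools occurred on both days. The mean was 8928 ± 576 (SD, n = 12 pools), a coefficient of variation of 6.45%. The SD of its log2 values was 0.092, above that of only 1.18% of the 7453 probe sets. Among the 52 probe sets within 0.5 log2 of its mean, a second scale that holds brightness alike, Adipoq lay above 7.69%. Both ranks are for the deposited scaling. Centring arrays on their medians shifted them by -0.15 to 0.16 log2, larger in size than the SD of 0.092. The ranks after such centring were not tested. The highest intensity in the whole table was 20518, and whether probes of this brightness respond less than in proportion was not tested.

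Lep intensities from CT18 to CT38 were 648, 263, 249, 309, 325 and 257. From CT42 to CT62 they were 525, 506, 311, 107, 316 and 603. On the first day CT18 stood alone above the other 5 pools, which lay within a narrow band. On the second day CT42, CT46 and CT62 were high, CT50 and CT58 intermediate, and CT54 was the lowest pool of all. The 2 arrays of CT18 read 613 and 683, a difference of 0.16 on the log2 scale against an SD of 0.71 between pools. That SD was above 89.7% of all probe sets kept, and above 96.7% of the 1564 within 0.5 log2 of the Lep mean.

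Retn intensities from CT18 to CT38 were 344, 559, 525, 238, 377 and 542. From CT42 to CT62 they were 500, 557, 530, 375, 451 and 583. CT30 was the lowest pool and CT62 the highest, 2.45-fold apart, and CT18, CT34 and CT54 were also low. The CT18 arrays read 382 and 306, which is 0.32 on the log2 scale, close to the SD between pools of 0.39. That SD was above 60.2% of all probe sets kept, and above 85.3% of the 1306 within 0.5 log2 of the Retn mean.

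**Figure D1:**
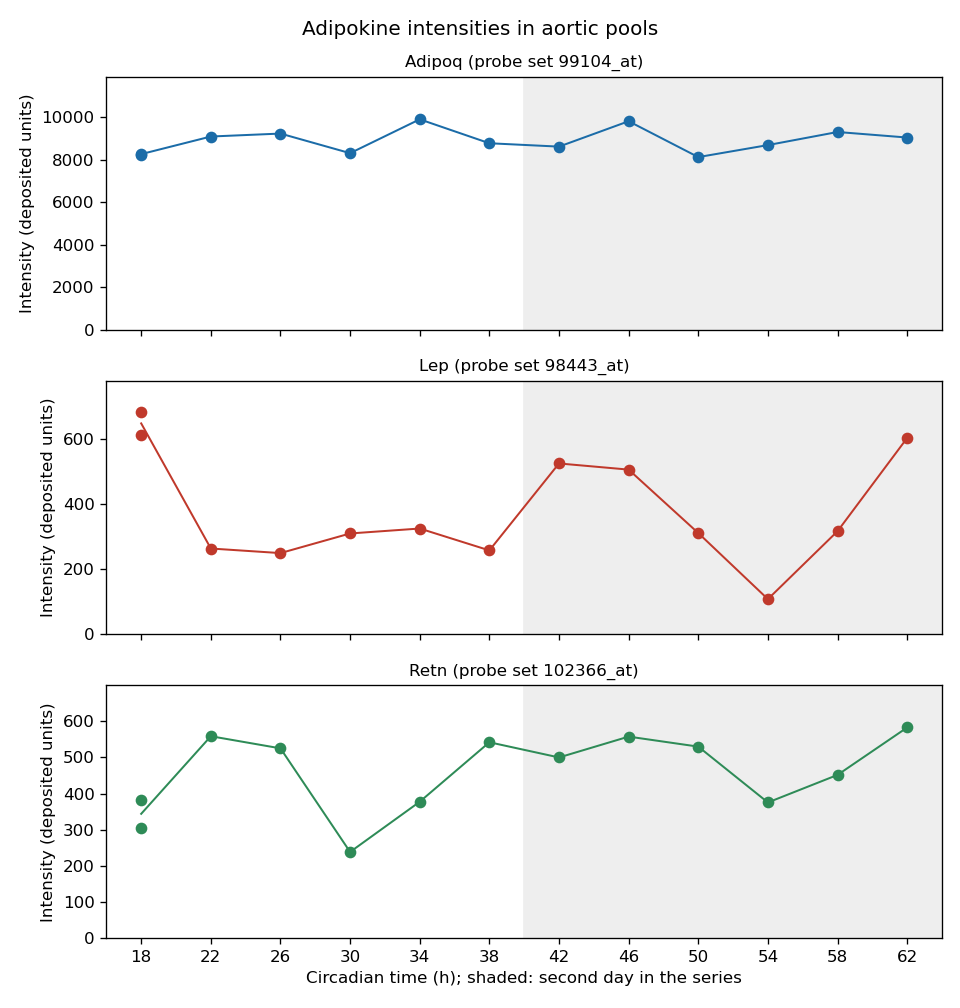
Deposited intensity (linear axis from 0) of Adipoq, Lep and Retn against circadian time in h, with a point for each array and a line through the pools; the shaded part is the second day. Adipoq stays between 8123 and 9898, Lep spans 107 to 648 with peaks at CT18, CT42, CT46 and CT62, and Retn spans 238 to 583.

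**Figure D2:**
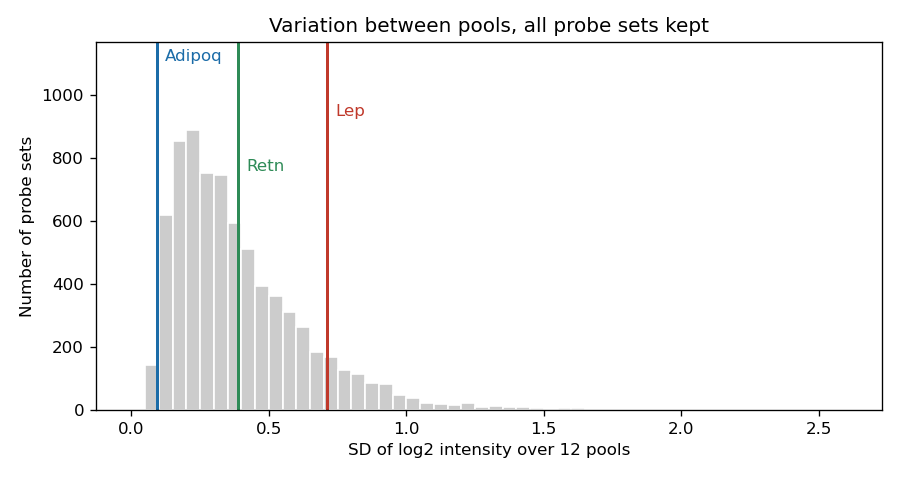
Number of probe sets (vertical axis) by the SD of log2 intensity over the 12 pools (horizontal axis), for the 7453 probe sets kept, with vertical lines at Adipoq (0.092), Retn (0.39) and Lep (0.71). Adipoq lies at the lower edge of the distribution and Lep in its upper part.

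The time course in darkness asks which genes of the aorta cycle with a period of 24 h. A 24-h cosine was fitted to the 12 pools with limma across all 7453 probe sets, and its amplitude is the height of the fitted peak above the fitted mean. Of the 3 adipokines, 0 passed at an adjusted p of 0.05, where 0.349% of all probe sets passed (26). At an unadjusted p under 0.05 there was 1, Lep, where 9.96% of all probe sets passed.

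Lep had a fitted amplitude of 0.68 ± 0.20 (SE, n = 12 pools) with the fitted maximum at circadian hour 17.5, in the middle of the subjective night. Its limma p was 0.0154 before and 0.362 after Benjamini-Hochberg adjustment, and the cosine accounted for an R2 of 0.498. The mean at circadian hour 18 was 586 ± 87.1, and at hour 6 it was 208 ± 143 (SD, n = 2 pools each). The pools of hour 18, CT42 and CT18, read 525 and 648 and were both above those of hour 6, CT54 and CT30, at 107 and 309. Without CT54 the amplitude was 0.47 ± 0.17 (adjusted p = 0.613), and without CT30 it was 0.81 ± 0.21 (adjusted p = 0.179); the adjusted p over all alternatives ran from 0.179 to 0.698. CT54 was also the pool with the lowest skeletal muscle and the highest thymocyte signal. With the skeletal muscle, thymocyte and atrial marker means as covariates the Lep amplitude was 1.11 ± 0.40 (adjusted p = 0.447), 1.63 times the value without them.

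Retn had an amplitude of 0.26 ± 0.14 with the fitted maximum at hour 19.5 (limma adjusted p = 0.675). The intensity at hour 14 averaged 562 ± 28.9 and at hour 22 558 ± 0.758, while at hour 6 it averaged 307 ± 96.9 (SD, n = 2 pools each). The pools of hour 6, CT54 and CT30, read 375 and 238, each the lowest of its day. Without CT30 the amplitude was 0.14 ± 0.11 (adjusted p = 0.711), and without CT18 it was 0.40 ± 0.12 (adjusted p = 0.424). The 5th percentile of intensity of the whole array was -137 at CT30, where Retn was lowest, and -69.2 at CT62, where it was highest. It was -152, its most negative value, at CT46 (Retn 557) and -69.9 at CT58 (Retn 451). Whether array-wide intensity affected Retn was not tested. With that percentile as a covariate the amplitude was 0.47 ± 0.12 (adjusted p = 0.295), and with the adipocyte marker mean as a covariate it was 0.53 ± 0.18 (adjusted p = 0.544).

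Adipoq had an amplitude of 0.02 ± 0.05 (limma adjusted p = 0.976), smaller than that of all but 1.18% of probe sets. With arrays centred on their medians, Adipoq had 0.07 ± 0.08 (limma adjusted p = 0.926), 3.56 times that amplitude. Its means at the 6 circadian hours ran from 8439 ± 249 at hour 18 to 9600 ± 421 at hour 10 (SD, n = 2 pools each). The fitted maximum has no use at this amplitude, since leaving out a time point moved it between hours 4.85 and 19.8.

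**Figure D3:**
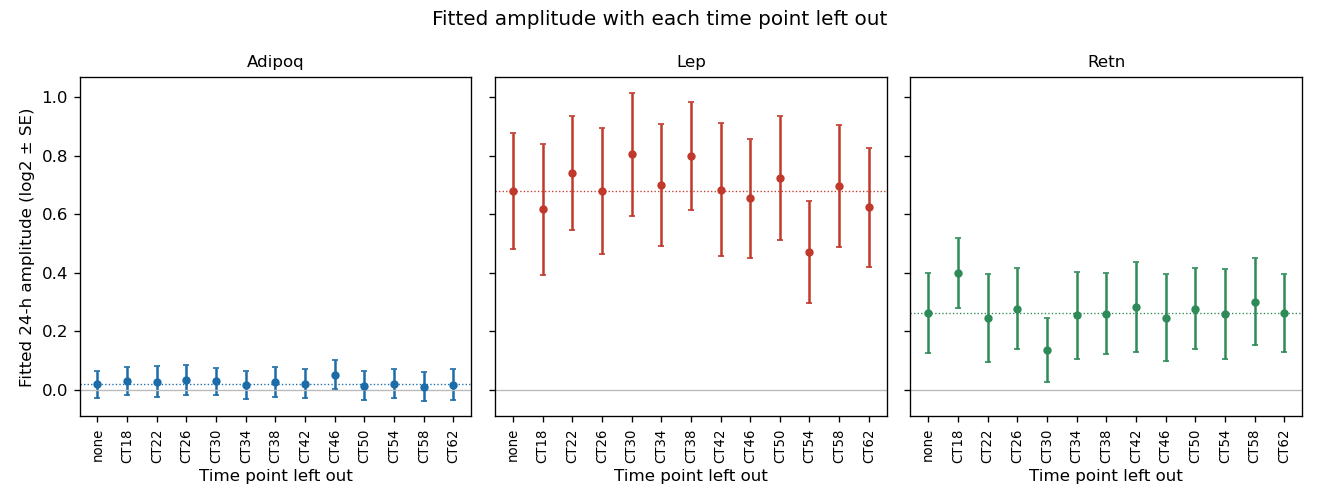
Fitted 24-h amplitude (log2, points, with SE as bars) of Adipoq, Lep and Retn with all time points ("none") and with each time point left out in turn; the dotted line is the amplitude from all pools. Lep runs from 0.47 without CT54 to 0.81 without CT30, Retn from 0.14 without CT30 to 0.40 without CT18, and Adipoq stays at or below 0.05.

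The second day repeated each circadian hour of the first, which asks whether levels drifted in darkness and whether a profile recurred. In the test of the second day against the first, 0 of 3 adipokines passed, as did 0% of all probe sets by limma and 0 by an ordinary test; at an unadjusted p under 0.05, 7.54% of all probe sets and 0 adipokines did. Adipoq averaged 8930 ± 589 on the second day and 8927 ± 618 on the first (SD, n = 6 pools each), a fitted difference of 0.00 ± 0.07 with a 95% interval of -0.15 to 0.15.

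Lep averaged 395 ± 184 on the second day and 342 ± 153 on the first (SD, n = 6 pools each), with the days overlapping widely. The fitted difference was 0.10 ± 0.29 (95% interval -0.53 to 0.74, limma adjusted p = 0.936), and the second day was higher in 3 of 6 pairs. Leaving out CT22 or CT38 turned its sign. Retn averaged 499 ± 76.1 on the second day and 431 ± 130 on the first (SD, n = 6 pools each). The second day was higher in 5 of 6 pairs, by a fitted 0.26 ± 0.18 (95% interval -0.14 to 0.67, limma adjusted p = 0.759). The Retn difference was 0.126 without CT30, 0.135 without CT18 and 0.0598 with the adipocyte mean as a covariate. With pools paired by circadian hour it was 0.26 ± 0.11, with a limma p of 0.0476 before and 0.616 after adjustment.

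Recurrence differed between hours. Lep read 316 at CT58 and 325 at CT34, but 603 at CT62 against 257 at CT38, and 506 at CT46 against 263 at CT22. Over the 6 hours, pools 24 h apart differed by an average of 0.73 on the log2 scale for Lep, 0.26 for Retn and 0.092 for Adipoq. The SD over all pools was 0.71, 0.39 and 0.092 in the same order. For Lep and Adipoq, pools 24 h apart thus differed by about as much as the SD of the gene, and for Retn by less. Fitted on each day alone, the Lep maximum fell at hour 17.7 with an amplitude of 1.04 on the second day, and at hour 16.8 with 0.33 on the first. In the test of the difference in rhythm between the days, 0 adipokines passed, and neither did any probe set (0%) by limma or by an ordinary test, with 6.98% at an unadjusted p under 0.05. The adjusted p was 0.772 for Lep, 0.981 for Retn and 0.962 for Adipoq, so the difference between the Lep amplitudes of the days did not pass the test.

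**Figure D4:**
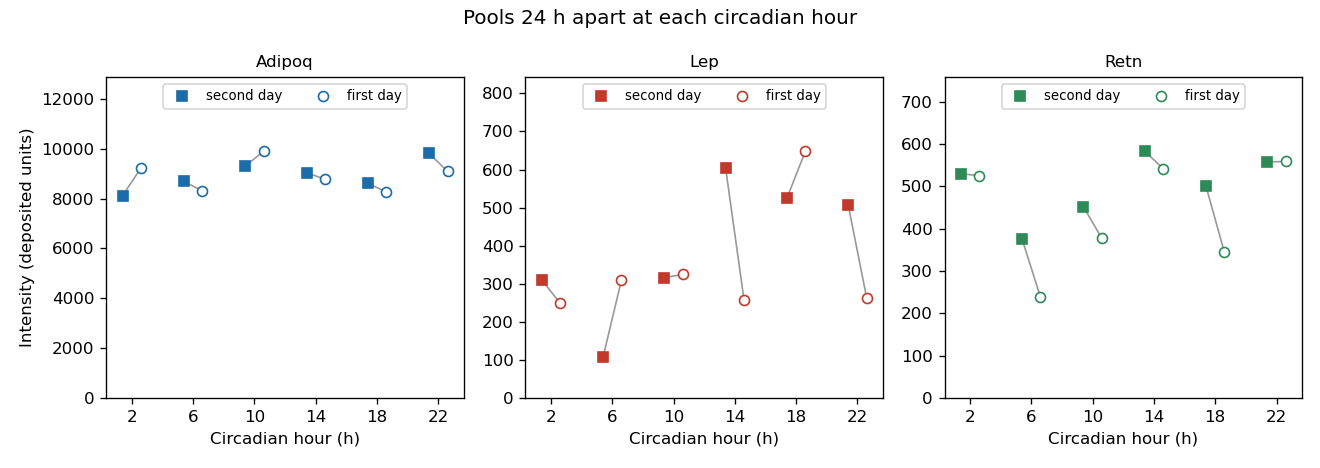
Intensity (linear axis from 0) of Adipoq, Lep and Retn at each circadian hour, with the second-day pool as a filled square on the left and the first-day pool as an open circle on the right, joined by a line. Lep pairs at hours 6, 14 and 22 lie far apart. The pairs of Adipoq lie close together on this axis, as do all its pools.

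No pair of adipokines had a correlation past the threshold. Across the 12 pools, Pearson's r between Lep and Adipoq was 0.0228 (permutation p = 0.945, adjusted over 3 pairs 0.945) and Spearman's rho was -0.0490 (p = 0.886, adjusted 0.887). Between Retn and Lep, r was 0.143 (p = 0.634, adjusted 0.945) and rho 0.0490 (p = 0.887, adjusted 0.887). Between Retn and Adipoq, r was 0.337 (p = 0.285, adjusted 0.855) and rho 0.308 (p = 0.332, adjusted 0.887). Without the 2 pools farthest from the median of the gene named second, r was -0.164, 0.208 and 0.504 for these 3 pairs. The sign of r between Retn and Adipoq depended on the scaling, with 0.610 after centring arrays on their medians and -0.407 after quantile normalization.

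The adipocyte sum, to which the brightest genes contribute most, varied little. The summed intensity of 17 adipocyte identity genes ran from 72617 at CT30 to 86086 at CT50, a 1.19-fold range, where Adipoq had 1.22-fold. Of the 17 genes, 6 had an unadjusted rhythm p under 0.05, where 9.96% of all probe sets did. The mean of their centred log2 profiles had a correlation with Adipoq of r = 0.343 (permutation p = 0.273, adjusted over 18 relations 0.820; rho = 0.378, p = 0.228, adjusted 0.742), and of 0.105 without the 2 farthest pools. After centring arrays on their medians that r was 0.786 (adjusted p = 0.0430), and after quantile normalization 0.0613. For Lep the same relation gave r = -0.420 (permutation p = 0.176, adjusted 0.820; rho = -0.210, p = 0.512, adjusted 0.742), and -0.368 without the 2 farthest pools. With the adipocyte mean as a covariate the Lep amplitude was 0.74 ± 0.29 (adjusted p = 0.579), and with Adipoq itself as a covariate it was 0.68 ± 0.21 (adjusted p = 0.407).

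The other marker lists gave no relation past the threshold either. Of 18 relations between the 3 adipokines and 6 lists, 0 had an adjusted permutation p under 0.05. The nearest was Lep with skeletal muscle (r = 0.538, permutation p = 0.0704, adjusted 0.820; rho = 0.643, p = 0.0282, adjusted 0.507), which stood at 0.563 without the 2 farthest pools. The summed brown fat signal, of 8 genes, ran from 25572 at CT18 to 36766 at CT58. Lep was highest at CT18, where that sum was lowest, with r = -0.473 against the brown fat mean over all pools (permutation p = 0.120, adjusted 0.820; rho = -0.308, p = 0.330, adjusted 0.742), and -0.516 without the 2 farthest pools. Markers of macrophages, a source of resistin in humans, had a summed signal of 2799 to 3766 and r = 0.372 with Retn (permutation p = 0.233, adjusted 0.820; rho = 0.497, p = 0.103, adjusted 0.742), and 0.367 without the 2 farthest pools.

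**Figure D5:**
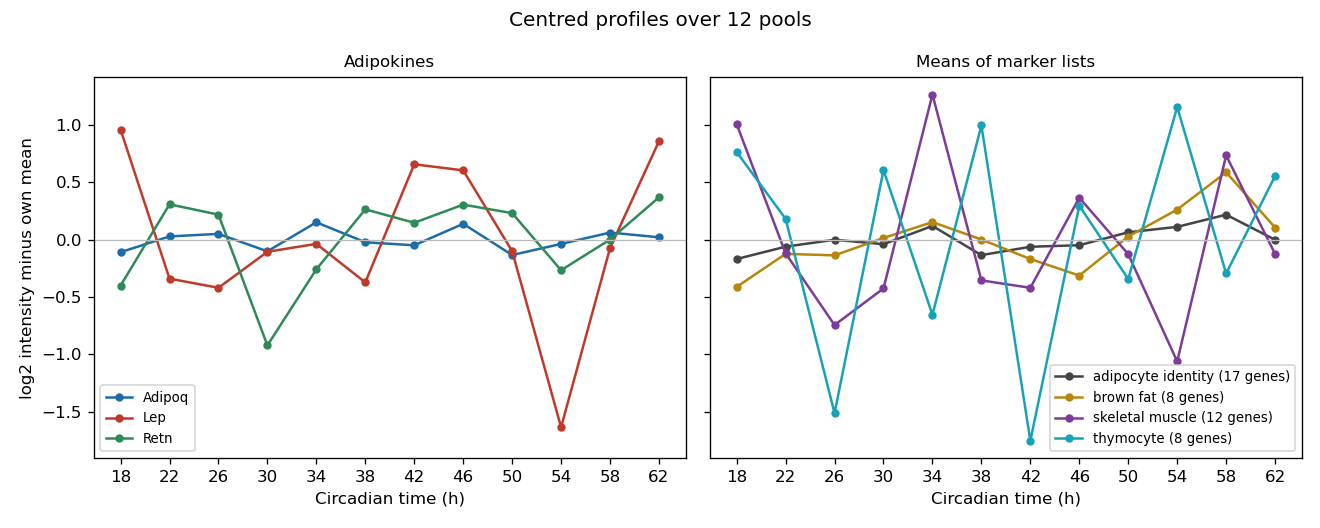
Log2 intensity minus its own mean over the pools (vertical axis) against circadian time in h, for the 3 adipokines (left) and for the mean profiles of 4 marker lists (right). Lep swings from 0.96 at CT18 to -1.63 at CT54, while Adipoq and the adipocyte identity mean stay near 0; the skeletal muscle and thymocyte means vary most between neighbouring pools.

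Adiponectin and leptin act through receptors, and the array measured some of them. Of 10 receptor and signalling genes with a probe set, 6 passed the intensity filter, which kept 5655 of 8251 genes in the series. Of these 6, 0 passed for a rhythm, where 0.349% of all probe sets did, and 0 for a day difference, where 0% did. Their median amplitude was 0.19, where the median of all probe sets kept was 0.18. Adipor2 (104605_at), a receptor of adiponectin, ran from 1522 to 2490 with a median of 2167. Its amplitude was 0.20 ± 0.06 with the fitted maximum at hour 4.26 (limma adjusted p = 0.375). Adipor1 (160134_at), the other receptor, ran from 57.9 to 198 (amplitude 0.21 ± 0.21, adjusted p = 0.880). Cap1, which binds resistin in human monocytes, ran from 47.9 to 99.5 (amplitude 0.19 ± 0.16, adjusted p = 0.849). Lepr and Cdh13, which binds adiponectin on endothelial cells, did not pass the filter; Lepr was below the floor in 9 of 12 pools and Cdh13 in 6.

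Of 19 other adipokine genes with a probe set, 13 passed the intensity filter. Among these 13, 0 passed for a rhythm, where 0.349% of all probe sets did, and 0 for a day difference, where 0% did. Their median amplitude was 0.18. Nampt (94461_at), which encodes visfatin, an enzyme of NAD synthesis also released by fat, had the smallest p. It ran from 278 to 1062 with a median of 515, and its amplitude was 0.61 ± 0.12 with the maximum at hour 14.0 (limma adjusted p = 0.0975). Without CT26 it passed (adjusted p = 0.0340), the only one of 26 repeats in which it did. Of 12 complement genes with a probe set, 10 passed the intensity filter. Of these 10, 0 passed in either test, against the same shares of all probe sets (median amplitude 0.16). The smallest p was that of Cd55 (103617_at), which dissolves complement convertases on cell surfaces, with 31.2 to 83.9 (amplitude 0.51 ± 0.15, limma adjusted p = 0.347); it was under the floor in 3 of 12 pools.

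Of 15 transcription factors and regulators of fat cells with a probe set, 13 passed the intensity filter. Among these 13, 1 passed for a rhythm, where 0.349% of all probe sets did. Their median amplitude was 0.29, where that of all probe sets kept was 0.18. The gene that passed was Cebpa (98447_at), a driver of fat cell differentiation. It ran from 2271 to 4739 with a fitted maximum at hour 4.50 (amplitude 0.45 ± 0.05, limma adjusted p = 0.0101). Cebpa passed in all 14 repeats that left out a time point or array (adjusted p at most 0.0428) and in 6 of 12 other alternatives, where the adjusted p reached 0.251. Among 17 adipocyte identity genes, of median amplitude 0.21, 1 also passed, Dgat1 (104371_at), which makes triglyceride. It ran from 820 to 1661 with a maximum at hour 9.24 (amplitude 0.39 ± 0.06, limma adjusted p = 0.0460). Dgat1 passed in 4 of 14 such repeats, those without CT26, CT30, CT38 or the first CT18 array, and in 3 of 12 other alternatives; without any other time point or with the second CT18 array left out it did not, and its adjusted p reached 0.126 there and 0.311 in the other alternatives. None of these genes passed for a day difference, where 0% of all probe sets did.

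The genes most like each adipokine were taken by the highest Pearson r over the 12 pools among 5652 genes, and are given without a test. Because r over these same pools chose them, shared high or low pools are favoured by the choice. For Lep they were Bag3 (161980_f_at, r = 0.860), a co-chaperone of Hsp70, Mid1ip1 (95135_at, r = 0.836), an activator of acetyl-CoA carboxylase, and Tirap (103693_at, r = 0.814), an adaptor of Toll-like receptors. Mid1ip1 ran from 361 at CT38 to 1305 at CT62, and Bag3 from 151 at CT54 to 281 at CT18. Tirap was near the floor, between 26.5 and 79.5. For Retn they were Cox7a2 (93820_at, r = 0.893), a subunit of cytochrome c oxidase, Ctsz (92633_at, r = 0.877), a lysosomal protease, and Lpin1 (98892_at, r = 0.863), a phosphatidate phosphatase of lipid synthesis. Cox7a2 and Lpin1 had their lowest values, 4325 and 630, at CT30, as Retn did. For Adipoq they were Abcc9 (97172_s_at, r = 0.852), a subunit of potassium channels, Tmem68 (104620_at, r = 0.819) and Gtf3c1 (97354_at, r = 0.795), a subunit of transcription factor TFIIIC. All were far dimmer than Adipoq: Abcc9 ran from 63.2 to 119, Tmem68 from 21.7 to 124 and Gtf3c1 from 82.0 to 227. Tmem68 was under the floor in 1 of the 12 pools. The values of a pool come from the same arrays for every gene, so array-wide differences enter these correlations.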

How the data were processed

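The deposited table held 12488 probe sets on 13 arrays as linear intensities; the authors' software and scaling: not given in the sources used here. After trimming 2% from both tails, every column of deposited intensities averaged 200.2, so no further scaling was applied. The 66 control probe sets were left out. The annotation paired 10833 of 12422 with 1 gene and 396 with several. Values under 36.7 (the 20th percentile of positive ones) were set to that floor, log2 was taken, and the CT18 arrays were averaged. Probe sets with a mean at or above the 40th percentile were kept. Rhythm (cosine and sine of 24 h), day and day-by-rhythm terms were fitted (limma 3.58.1, R 4.3.3, eBayes with trend; 9, 8 and 6 residual degrees of freedom) and adjusted by Benjamini-Hochberg over all probe sets kept, and the fits were tested on simulated data. Correlations used 100000 permutations, two-sided. The number of arrays limits the precision. The members and gene lists were chosen with earlier results of these data known. Genes named were all members; per gene list, up to 3 past the rhythm threshold or otherwise the one with the smallest p; the receptors Adipor1, Adipor2, Cdh13, Lepr and Cap1; and the 3 genes most like each member. Fabp4, Ucp1, Acta2, Mest, Zic1 and Elovl3 were named outside this rule, as tissue checks. The labels speak of duplicate arrays at large, but among the 13 arrays only CT18 has a second one. A mark _s_at, _f_at or _g_at in a probe set name means that it can match more than 1 transcript. With no probe set assigned to Cfd, the 6 planned pairs of adipokines became 3. Alternatives covered the floor, filter, scaling, variance model, covariates and each time point left out.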

Additional observations from a re-analysis of the deposited data

Results flagged for a closer look

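Lep at CT18 stood apart from the other first-day pools: its gap to the nearest pool was 0.722 of the range of the 6 first-day pools on the log2 scale, above Dixon's critical value of 0.625 for 6 samples. The pool read 648, against 249 to 325 in the other first-day pools, and both of its arrays were high (613 and 683). The second-day pool of the same hour, CT42, read 525. Each end of 6 groups of pools was examined, and chance passes this criterion in about 5% of groups. Without CT18 the Lep amplitude was 0.62 ± 0.22 (limma adjusted p = 0.539).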

How the results depend on the processing

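No adipokine passed for a rhythm, a day difference or a difference in rhythm under any of 77, 80 and 66 repeats of these tests. Leaving out 1 time point or 1 CT18 array gave rhythm amplitudes of 0.01 to 0.05 for Adipoq, 0.47 to 0.81 for Lep and 0.14 to 0.40 for Retn, and the other alternatives gave 0.02 to 0.07, 0.61 to 1.11 and 0.23 to 0.53. The number of all probe sets with a rhythm ran from 4 (no filter, no trend, or an ordinary test) to 39 (without CT30), against 26. That with a day difference was 2 without CT42, 1 without CT58 and otherwise 0. The day difference changed sign in 12 of 80 repeats. For Adipoq it was -0.0663 after quantile normalization, -0.0884 with the adipocyte mean as a covariate, -0.00048 with the 5th percentile as a covariate, and -0.0378 to 0.0347 with a time point left out. For Lep it was -0.0796 to 0.357 with a time point left out. For Retn it kept its sign, from 0.126 to 0.359 with a time point left out and 0.0598 to 0.343 otherwise. Correlations between adipokines turned sign in 7 of 60: Lep with Adipoq was -0.0499 after median centring, -0.0370 on linear intensities and -0.121 to 0.214 with a time point left out, Retn with Adipoq -0.407 after quantile normalization, and Retn with Lep -0.0179 to 0.328 with a time point left out. Correlations with marker lists turned sign in 23 of 324 and passed in 1, Adipoq with adipocyte identity after median centring (0.786). Those turned were, after median centring, Retn with adipocyte identity (0.377) and brown fat (0.228), Adipoq with atrial muscle (0.271) and Lep with macrophage (-0.118); after quantile normalization, Adipoq with brown fat (-0.0174), thymocyte (0.487) and macrophage (-0.147) and Lep with macrophage (-0.0948); and with the floor at the 10th percentile, Lep with macrophage (-0.125). With a time point left out, Retn ran from -0.237 to 0.0663 with adipocyte identity, -0.298 to 0.00391 with brown fat and -0.405 to 0.0257 with skeletal muscle. Adipoq ran from -0.0144 to 0.419 with brown fat and -0.195 to 0.0798 with atrial muscle, and Lep from -0.346 to 0.134 with thymocyte and -0.318 to 0.231 with macrophage. Median centring shifted arrays by -0.15 to 0.16 log2. The cause of these changes was not tested. Conditioning on Adipoq was chosen after seeing the data. Paired by circadian hour, the day differences were 0.00 ± 0.06 for Adipoq, 0.10 ± 0.32 for Lep and 0.26 ± 0.11 for Retn, the last at an unadjusted limma p of 0.0476 (adjusted 0.616), and none passed. Replicate numbers could not serve as a block, since the time points share only the array number 1. Each hour had 2 pools, and values near the floor (36.7) are bounds.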
